A study of Mus musculus with 9 samples.

Results

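The genes described here were *Gbp8* and 38 further interferon-inducible genes of the mouse, that is, guanylate-binding proteins (GBPs) and classic interferon-stimulated genes. *Gbp8* gave the set its name because its array signal was higher at 24 h after ultrasound, so its values at 24 h are described without a test. The others were listed by symbol as known interferon targets, but with earlier results of these data known. A gene was taken as measured when a probe set of the array carried its symbol and no other, and where several did, the probe set with the highest mean over the 9 arrays was used. Of the 39 listed genes 34 were measured in this way, 5 GBPs and 29 others, out of 18193 genes on the array. *Gbp5*, *Gbp9* and *Ifi44* had no such probe set, and *Gbp4* and *Isg15* lay only on probe sets that also carry a second symbol.

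MC3T3-E1 is a preosteoblast line from newborn mouse calvaria, of C57BL/6 origin. In all groups the cells were grown for 14 days in medium with L-ascorbic acid and beta-glycerophosphate, replated, and cultured for a further 24 h. Low-intensity pulsed ultrasound (LIPUS, 1.5 MHz, 30 mW/cm2) was then given through the bottom of the dish for 20 min, and RNA was taken after 6 h or 24 h of further culture, whereas control cells were mock treated. Each of the 3 groups, control, LIPUS 6 h and LIPUS 24 h, had 3 arrays, numbered here as experiments 1, 2 and 3. The culture time of the mock control was not given, so an effect of LIPUS and one of time in culture cannot be told apart, and both LIPUS groups were set against the same control arrays. The arrays of a group came from repeated experiments, per the paper, which does not say which arrays of different groups shared an experiment or how its cultures were set up. P-values measure the spread between these arrays. In a bulk extract, fewer expressing cells and less RNA per cell cannot be told apart.

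Interferons bind receptors on the cell surface and act through JAK kinases and STAT factors. Type I interferons chiefly act through a complex, with STAT2 and IRF9 among its parts, that binds the interferon-stimulated response element (ISRE), while interferon-gamma acts chiefly through the gamma-activated site (GAS). GBPs are large GTPases, known mainly as targets of interferon-gamma, that gather on vacuoles of intracellular pathogens and on other membranes. In bone, interferons are known above all as inhibitors of osteoclast formation.

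The ISRE appeared in the start regions of many of these genes. In the RefSeq sequences of assembly GRCm38.p6, 250 bases before to 50 bases after the start site, 29 of the 39 genes had an entry. The core of the ISRE, taken as GAAA, any 2 bases and GAAA and searched on both strands, was present in 4 of 4 GBPs (*Gbp2*, *Gbp3*, *Gbp5* and *Gbp7*) and in 11 of the other 25 genes (44%), compared with 3.99% of the 27025 genes of the table. The core of the GAS, TTCNNNGAA, was present in 2 of the 4 GBPs (*Gbp5* and *Gbp7*) and in 8 of the other 25 genes (32%), compared with 9.55% of all genes. No entry was given for *Gbp4*, *Gbp6*, *Gbp8* and *Gbp9*. A match of letters is a description of the sequence and was not tested for binding.

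The 170 bases before the start site are printed below for 6 genes, because these genes share the motif while their signals are set beside each other in the sections that follow. ISRE matches are in capitals, and those that read TTTC, any 2 bases and TTTC lie on the other strand. The stretches are at chr3:142620493-142620662 (*Gbp2*), chr3:142559874-142560043 (*Gbp3*), chr3:142530166-142530335 (*Gbp7*), chr19:34640719-34640888 (*Ifit1*) and chr19:34583359-34583528 (*Ifit3*) on the plus strand, and at chr8:71537473-71537642 (*Bst2*) on the minus strand. In *Gbp3* and *Bst2* a pair of overlapping matches forms 1 longer run of capitals, and in *Bst2* a GAS match overlaps that run.

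Gbp2: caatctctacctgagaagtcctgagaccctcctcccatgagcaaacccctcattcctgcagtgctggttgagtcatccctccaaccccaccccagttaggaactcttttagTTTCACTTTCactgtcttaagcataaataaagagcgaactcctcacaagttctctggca
Gbp3: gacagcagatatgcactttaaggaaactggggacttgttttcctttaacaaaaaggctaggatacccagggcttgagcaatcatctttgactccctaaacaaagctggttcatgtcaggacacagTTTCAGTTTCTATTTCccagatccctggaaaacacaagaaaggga
Gbp7: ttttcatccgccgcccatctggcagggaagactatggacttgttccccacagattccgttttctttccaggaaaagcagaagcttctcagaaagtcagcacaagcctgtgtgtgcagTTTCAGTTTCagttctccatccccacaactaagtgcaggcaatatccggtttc
Ifit1: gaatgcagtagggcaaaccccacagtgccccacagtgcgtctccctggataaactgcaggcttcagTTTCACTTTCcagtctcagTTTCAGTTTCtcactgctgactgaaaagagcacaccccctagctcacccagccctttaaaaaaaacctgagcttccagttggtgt
Ifit3: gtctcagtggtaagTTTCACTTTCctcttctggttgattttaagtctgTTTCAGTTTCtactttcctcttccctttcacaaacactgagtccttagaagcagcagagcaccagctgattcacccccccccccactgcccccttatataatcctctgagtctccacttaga
Bst2: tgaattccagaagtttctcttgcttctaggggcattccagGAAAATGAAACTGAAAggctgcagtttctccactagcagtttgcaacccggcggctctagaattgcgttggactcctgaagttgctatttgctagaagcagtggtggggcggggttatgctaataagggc

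*Gbp8*, an interferon-inducible GTPase, had log2 signals of 3.41, 3.84 and 3.36 in the control of experiments 1, 2 and 3. The signals were 3.78, 4.04 and 3.50 at 6 h and 5.04, 5.39 and 4.92 at 24 h. All 3 arrays at 24 h lay above all 6 other arrays, while the 6 h and control arrays overlapped. The log2 ratios of 24 h to control were 1.62, 1.55 and 1.56, which is a mean fold of 2.98 ± 0.086 (SD, n = 3). Between 6 h and 24 h the log2 signal was higher by 1.25, 1.35 and 1.42 in the 3 experiments. At 6 h the log2 fold change against control was 0.23 ± 0.06 (SE), with an adjusted p of 0.959 by limma. This value rests on the same control arrays as the 24 h difference that chose *Gbp8*. The signal of *Gbp8* was low, under the median of its own array on 7 of the 9 arrays, among them every control and 6 h array. A second probe set, annotated to both *Gbp8* and *Gbp4*, read 5.14, 5.23 and 5.17 in the control and 5.25, 5.19 and 5.17 at 24 h, a log2 fold change of 0.02 ± 0.07 (adjusted p = 0.904 by limma).

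**Figure D1:**
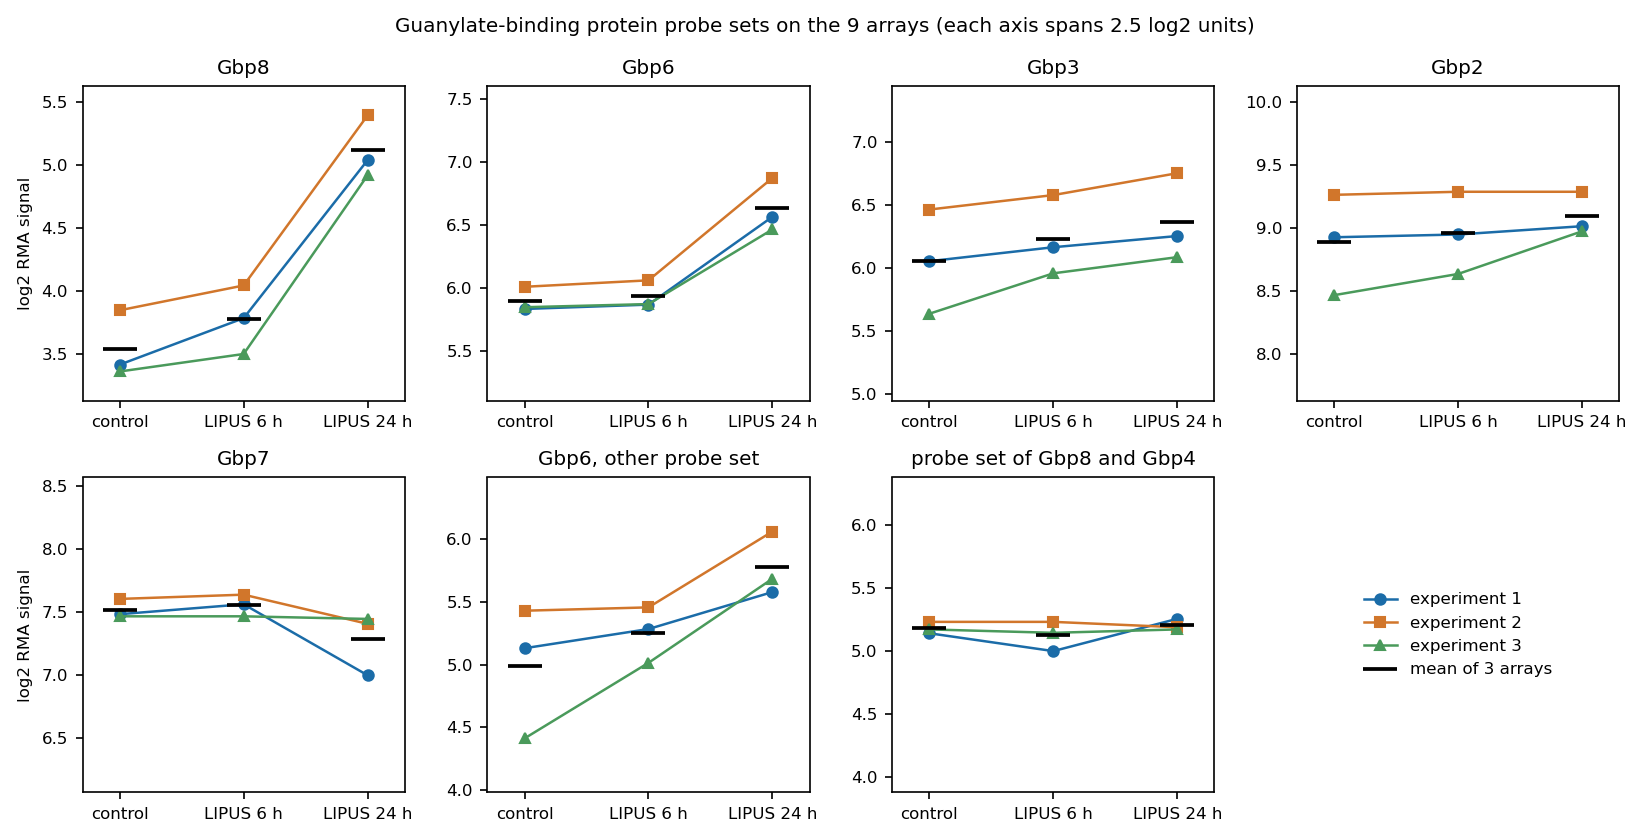
Log2 RMA signal (y axis) of the measured guanylate-binding protein probe sets in control, LIPUS 6 h and LIPUS 24 h cells (x axis), with a coloured line for each experiment and a black bar for the mean of 3 arrays. *Gbp8* and both probe sets of *Gbp6* are highest at 24 h in every experiment, *Gbp3* and *Gbp2* are higher by less, and *Gbp7* is lower.

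Among the GBPs other than *Gbp8*, *Gbp6* and *Gbp3* were upregulated at 24 h, and *Gbp2* and *Gbp7* did not pass the test. *Gbp6*, a GTPase encoded in the same cluster on chromosome 5 as *Gbp8*, had log2 signals of 5.84, 6.01 and 5.85 in the control, 5.87, 6.06 and 5.87 at 6 h, and 6.57, 6.87 and 6.47 at 24 h. The 24 h arrays stood above all others, and the 6 h and control arrays lay together. The log2 fold change at 24 h was 0.74 ± 0.06 (SE), or a mean fold of 1.67 ± 0.143 (SD, n = 3), with an adjusted p of 0.00178 by limma. Against 6 h it was 0.70 ± 0.06 (adjusted p = 0.00254 by limma), and at 6 h against control it was 0.04 ± 0.06. The other probe set of *Gbp6* gave 0.78 ± 0.15 at 24 h (adjusted p = 0.0462 by limma), with log2 ratios from 0.45 in experiment 1 to 1.27 in experiment 3. GBPs of this cluster, in the order *Gbp8*, *Gbp9*, *Gbp4*, *Gbp10*, *Gbp6* and *Gbp11*, are close paralogs. Probe sets may not separate them. The study lists the *Gbp6* probe set used here under *Gbp10*, among its upregulated probe sets at 24 h. The call of *Gbp6* is therefore not independent of the study's own result.

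*Gbp3*, a GTPase of the cluster on chromosome 3, read 6.06, 6.47 and 5.64 in the control, 6.17, 6.58 and 5.96 at 6 h, and 6.26, 6.76 and 6.09 at 24 h. The groups overlapped because experiments differed in level, but within each experiment the order was control, 6 h, 24 h. Its log2 fold change at 24 h was 0.31 ± 0.06 (mean fold 1.25 ± 0.110, SD, n = 3), just past the threshold with an adjusted p of 0.0476 by limma. At 6 h it was 0.18 ± 0.06, with an adjusted p of 0.959.

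*Gbp2* and *Gbp7* lie in the same cluster as *Gbp3*, with *Gbp7* as its neighbour. *Gbp2* read 8.92, 9.26 and 8.46 in the control and 9.01, 9.29 and 8.97 at 24 h. Its difference came mainly from experiment 3, with a log2 ratio of 0.51 against 0.09 and 0.02 in experiments 1 and 2. The fitted value of 0.21 ± 0.09 did not pass the test (adjusted p = 0.392 by limma). *Gbp7* read 7.481, 7.603 and 7.465 in the control and 6.997, 7.405 and 7.444 at 24 h. It was lower in all 3 experiments, by a log2 ratio of -0.48 in experiment 1 and of only -0.02 in experiment 3, and its log2 fold change of -0.23 ± 0.10 did not pass the test (adjusted p = 0.383 by limma). *Gbp3* and *Gbp7*, both with an ISRE core in the stretches printed above, had fitted differences of opposite sign, of which only that of *Gbp3* passed the test. A part of the motif in these values was not tested. The second probe sets of *Gbp2* and *Gbp7* differed in the same directions by 0.08 and -0.12.

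At 24 h, 5 of the 33 members other than *Gbp8* passed the adjusted p of 0.05, 3 higher and 2 lower (15.2%), compared with 2.73% of all 45037 probe sets. The upregulated members were *Gbp6*, *Gbp3* and *Psmb8*, and the downregulated members were *Ifit2* and *Ddx58*. GBPs accounted for 2 of 4, and the other members for 3 of 29 (10.3%). Because the members were chosen with earlier results of these data known, these shares are descriptions and were not tested. Of all probe sets 1.8% were called higher and 0.933% lower. Calls were more frequent among bright probe sets, and 24 of the 33 members lay in the brightest 40%. In a fit on that part, 6 of 24 members were called, beside 10.6% of its probe sets. The median log2 fold change was 0.26 over the 4 GBPs and 0.01 over the 29 other members, beside 0.00 over all probe sets. In experiments 1, 2 and 3 the median of the GBPs exceeded that of the others by 0.16, 0.16 and 0.48. The call rule as the study words it, a ratio of at least 1.5 in the same direction in all 3 experiments, was met by 59 probe sets (0.131%). The study's own lists at 24 h are longer, so its calls were not reproduced in full. *Gbp6* was the only 1 of the 33 to pass. Its probe set is already listed as upregulated by the study from the same arrays, so this is not independent evidence. *Gbp8*, not among the 33, had ratios above 1.5 in all 3 experiments but is absent from the study's lists. The count of 5 depended on the model, with 0 members called when the experiment was not a term, 0, 0 and 3 without experiment 1, 2 or 3, and 1 to 3 when any 1 of the 9 arrays was left out. *Gbp6* was called in each fit without a single array and in that without experiment 3, but not without experiment 1 or 2.

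**Figure D2:**
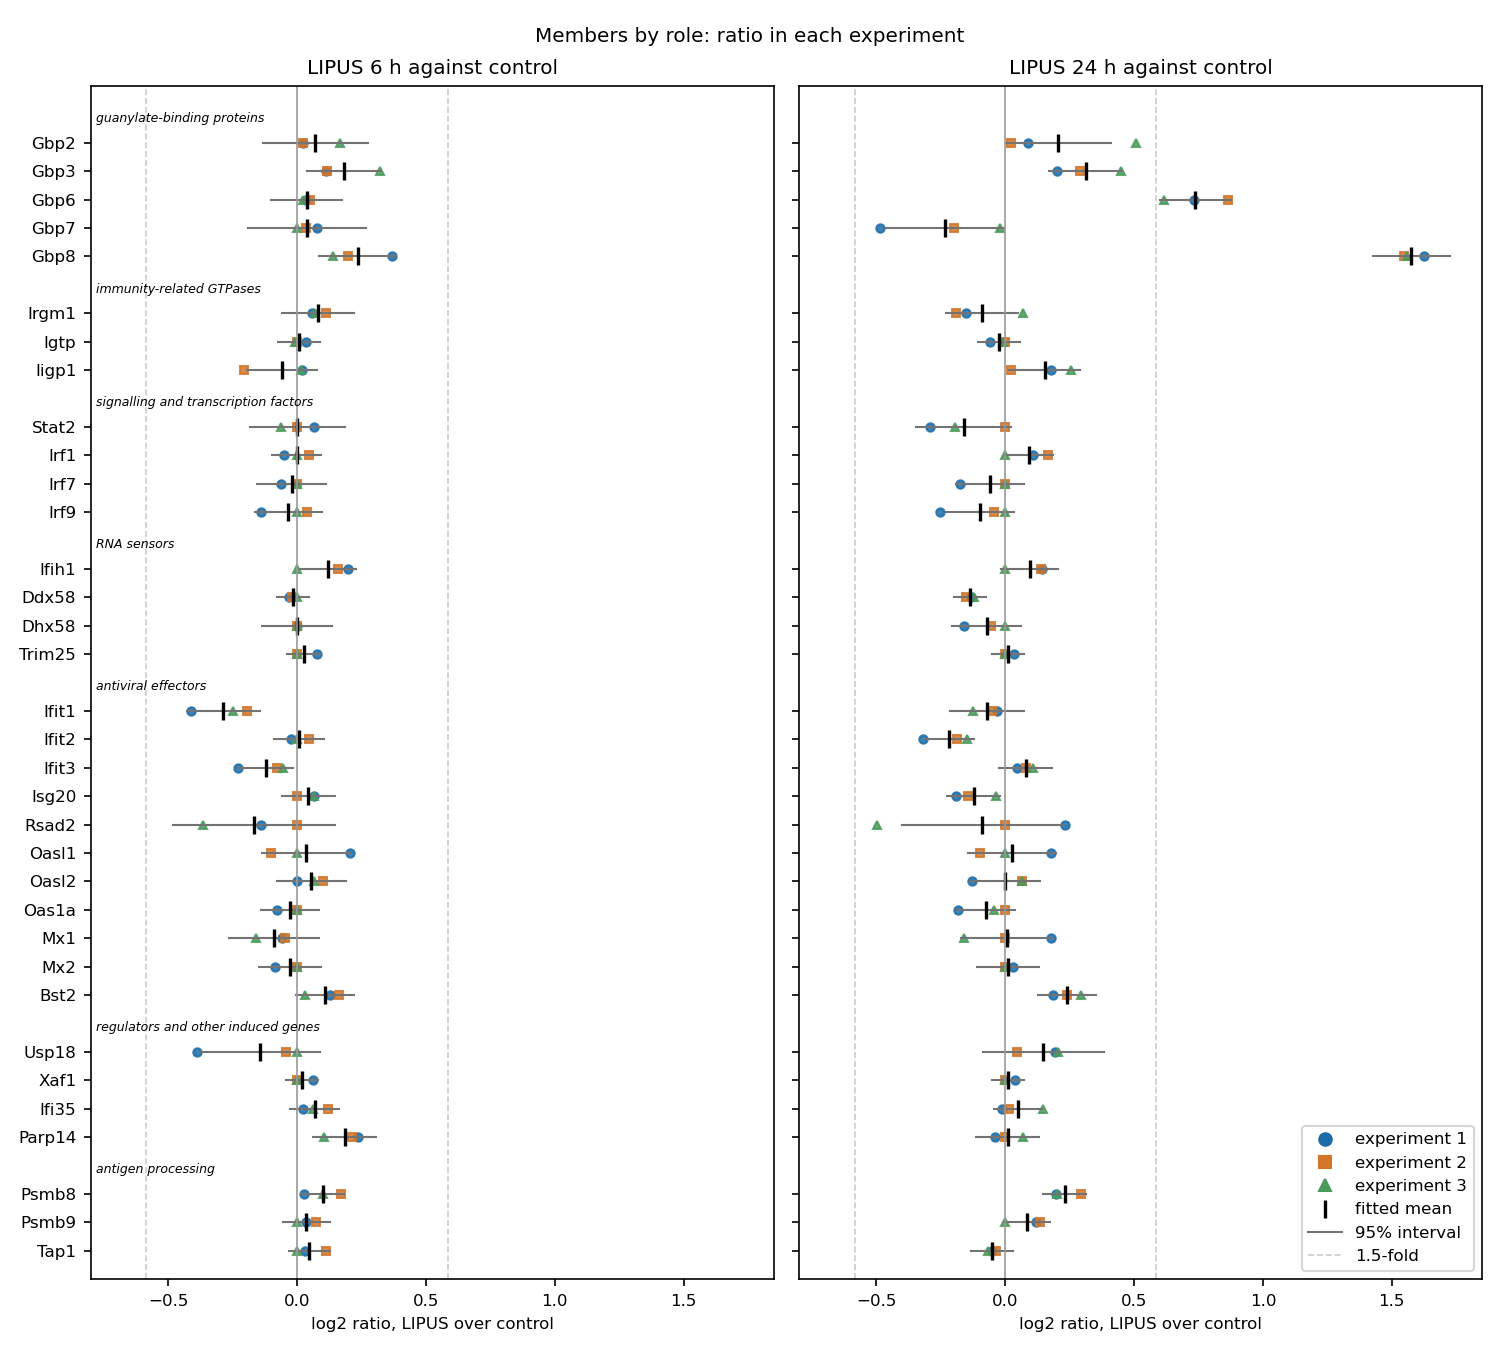
Log2 ratio of LIPUS to control (x axis) for each of the 34 measured genes (y axis, grouped by role) at 6 h and at 24 h, with a coloured point for each experiment, a black tick for the fitted mean and a grey line for its 95% interval. At 24 h *Gbp8* and *Gbp6* lie to the right of the others, and the intervals of all 29 genes that are not GBPs stay between the dashed lines at 1.5-fold.

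The immunity-related GTPases *Irgm1*, *Igtp* and *Iigp1* are small interferon-inducible GTPases that act on pathogen vacuoles. None of the 3 passed the test at 24 h. The largest difference was that of *Iigp1*, which read 6.73, 7.27 and 6.50 in the control, 6.75, 7.07 and 6.51 at 6 h, and 6.91, 7.30 and 6.75 at 24 h. It was higher at 24 h in 3 of 3 experiments, with overlapping groups and a log2 fold change of 0.15 ± 0.06 (adjusted p = 0.332 by limma). The log2 ratio in experiment 2 was only 0.02. The dimmer probe set of *Iigp1* gave 0.19 ± 0.11 (adjusted p = 0.531 by limma), with log2 ratios of -0.05, 0.12 and 0.51 in experiments 1, 2 and 3. *Irgm1* and *Igtp* had log2 fold changes of -0.09 and -0.02.

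The signalling factors *Stat2* and *Irf9*, partners in the type I interferon complex, and the transcription factors *Irf1* and *Irf7* showed no call. *Stat2* read 4.76, 4.54 and 5.21 in the control, 4.83, 4.54 and 5.15 at 6 h, and 4.47, 4.54 and 5.01 at 24 h. Its values were identical on the 3 arrays of experiment 2, and its log2 fold change at 24 h was -0.16 ± 0.08 (adjusted p = 0.471 by limma). *Irf1*, a factor induced early by interferon-gamma, differed by 0.09 ± 0.04 (adjusted p = 0.412), *Irf7*, which amplifies type I interferon production, by -0.06 ± 0.06, and *Irf9* by -0.10 ± 0.06.

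Of the RNA sensors, *Ddx58*, which encodes RIG-I, was downregulated at 24 h. It read 9.08, 9.29 and 8.52 in the control, 9.05, 9.27 and 8.52 at 6 h, and 8.95, 9.13 and 8.40 at 24 h. The groups overlapped, and within each experiment the 24 h array was the lowest. The log2 fold change was -0.14 ± 0.03, a mean fold of 0.910 ± 0.010 (SD, n = 3), with an adjusted p of 0.0467 by limma. The 2 dimmer probe sets of the gene gave 0.10 and 0.03 at 24 h, without a call. *Ifih1* (MDA5), *Dhx58* (LGP2) and *Trim25*, the ubiquitin ligase that activates RIG-I, differed by 0.09, -0.07 and 0.01.

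Of the 11 measured antiviral effectors, *Ifit2*, whose product binds RNA and restrains translation, was downregulated at 24 h. It read 8.65, 8.91 and 8.52 in the control, 8.62, 8.96 and 8.52 at 6 h, and 8.33, 8.72 and 8.38 at 24 h. In each experiment the 24 h array was the lowest, whereas 6 h and control differed by 0.05 or less. The log2 fold change was -0.22 ± 0.04 against control (mean fold 0.861 ± 0.053, SD, n = 3, adjusted p = 0.0428 by limma) and also -0.22 ± 0.04 against 6 h (adjusted p = 0.0455 by limma).

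The related genes *Ifit1* and *Ifit3* did not pass the limma test in any of the 3 comparisons. *Ifit1* read 6.66, 6.77 and 6.65 in the control, 6.25, 6.57 and 6.40 at 6 h, and 6.63, 6.71 and 6.53 at 24 h. All 3 of its 6 h arrays lay below all control arrays, and its log2 fold change at 6 h was -0.29 ± 0.06, the largest in size of any measured member at that time, with an adjusted p of 0.959 by limma. *Ifit3* read 7.22, 7.80 and 7.09 in the control, 6.99, 7.72 and 7.03 at 6 h, and 7.27, 7.88 and 7.20 at 24 h. It was lower at 6 h and higher at 24 h in every experiment, by -0.12 ± 0.04 and 0.08 ± 0.04.

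*Bst2* (tetherin), which holds budding virus at the cell surface, had the largest difference of the effectors. It read 7.52, 7.63 and 7.26 in the control, 7.65, 7.80 and 7.29 at 6 h, and 7.71, 7.87 and 7.55 at 24 h. The values were in the order control, 6 h, 24 h within every experiment. The log2 fold change at 24 h was 0.24 ± 0.05, which just missed the threshold (adjusted p = 0.0551 by limma).

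The other effectors were the nuclease gene *Isg20*, with -0.12 ± 0.04 (adjusted p = 0.295 by limma), *Rsad2* (viperin), with -0.09 ± 0.13, and *Oas1a*, *Oasl1* and *Oasl2* of the oligoadenylate synthetase family, with -0.08, 0.03 and 0.00. The dynamin-like GTPase genes *Mx1* and *Mx2* had log2 fold changes of 0.01 each. The signals of *Mx1* and *Dhx58* were below the array median on all 9 arrays and that of *Oasl1* on 7, so a difference in these genes rests on dim probe sets. *Isg15*, a ubiquitin-like modifier, was read only by a probe set that it shares with *Gm9706*. This probe set gave 8.04, 8.31 and 8.15 in the control and 8.29, 8.52 and 8.21 at 24 h, a log2 fold change of 0.18 ± 0.04 (adjusted p = 0.111 by limma).

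Of the regulators, *Usp18*, which encodes the protease that removes ISG15 and dampens type I interferon signalling, read 5.14, 5.22 and 5.06 in the control, 4.75, 5.18 and 5.06 at 6 h, and 5.33, 5.27 and 5.26 at 24 h. The 24 h arrays lay above all others. The log2 fold change of 0.15 ± 0.10 did not pass the test (adjusted p = 0.614 by limma). *Xaf1*, *Ifi35* and *Parp14* differed by 0.01, 0.05 and 0.01.

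Of the genes of antigen processing, *Psmb8*, a catalytic subunit of the immunoproteasome, was upregulated at 24 h. It read 8.91, 9.05 and 8.61 in the control, 8.93, 9.22 and 8.71 at 6 h, and 9.10, 9.34 and 8.81 at 24 h. The order was control, 6 h, 24 h in every experiment, with a log2 fold change of 0.23 ± 0.04 (mean fold 1.17 ± 0.046, SD, n = 3, adjusted p = 0.0202 by limma). The dimmer probe set of *Psmb8* gave -0.04 ± 0.06. *Psmb9*, another immunoproteasome subunit, and *Tap1*, a peptide transporter, had values of 0.09 ± 0.04 and -0.05 ± 0.03, with adjusted p of 0.424 and 0.608 by limma.

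**Figure D3:**
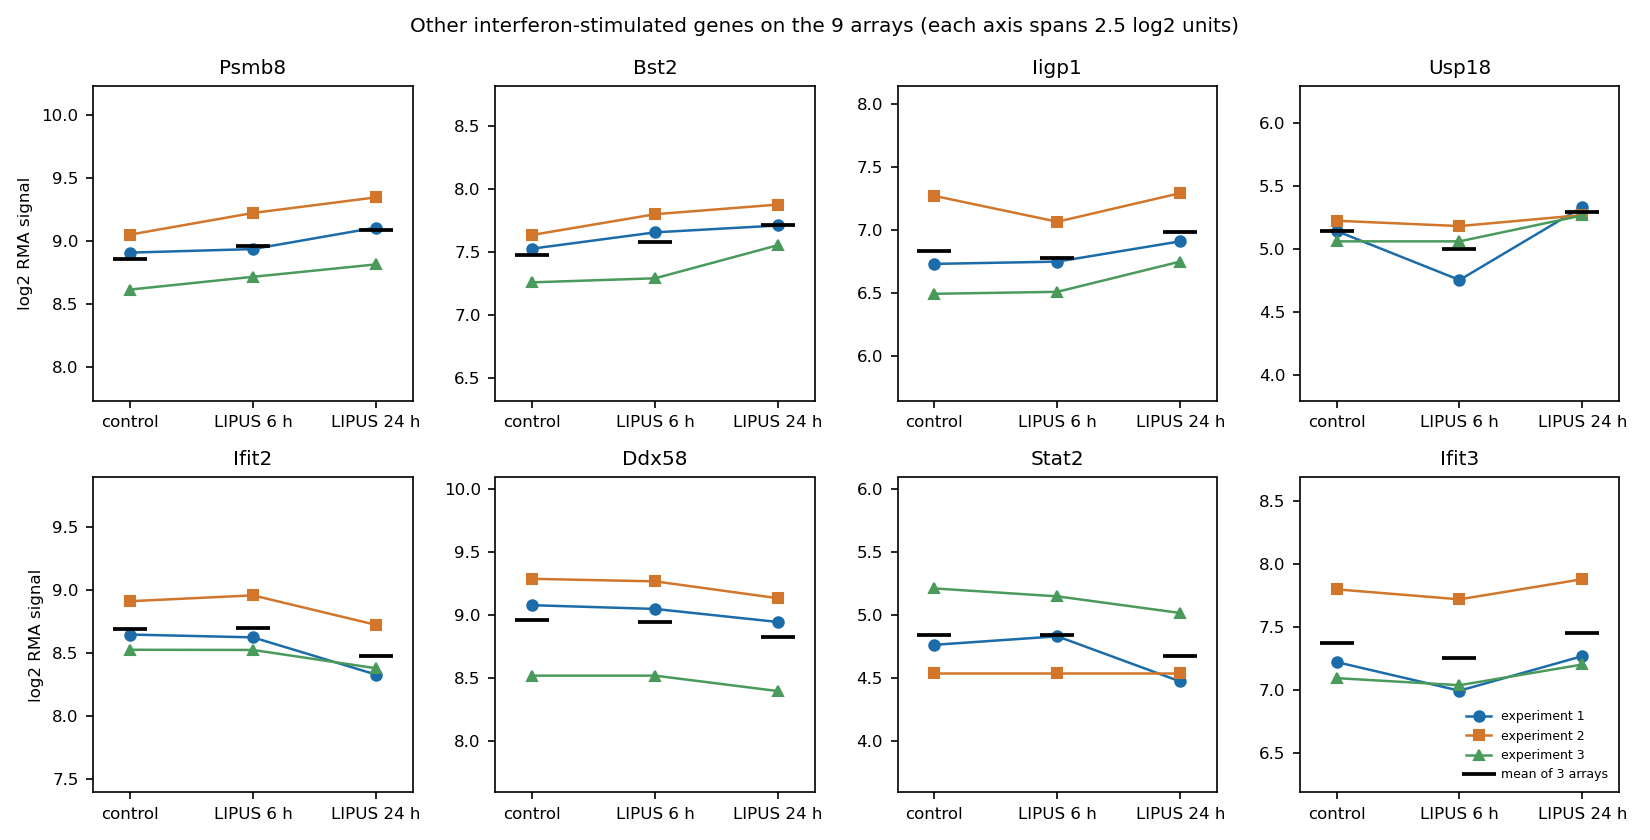
Log2 RMA signal (y axis) of 8 interferon-stimulated genes that are not GBPs in control, LIPUS 6 h and LIPUS 24 h cells (x axis), with a coloured line for each experiment and a black bar for the mean of 3 arrays. *Psmb8* and *Bst2* are highest and *Ifit2* and *Ddx58* lowest at 24 h in every experiment, and *Stat2* is flat in experiment 2.

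The differences of these 29 genes were small. The 95% interval of the fold lay within 1.5-fold in either direction for 29 of 29 at 24 h and for 29 of 29 at 6 h, as it did for 97.9% and 99% of all probe sets. Many values were tied. In experiments 2 and 3, 48.4% and 31.9% of all probe sets had a log2 ratio of exactly 0 at 24 h, compared with 1.26% in experiment 1. Among the 29 genes there were 10, 10 and 0 such ratios in experiments 2, 3 and 1. None of the 5 called members had a ratio of 0 at 24 h. The part of this coarseness in the calls was not tested.

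At 6 h none of the 34 measured members passed the test, as was true of all probe sets (0 of 45037, smallest adjusted p = 0.959 by limma). Without adjustment, 1575 of all 45037 probe sets had a limma p under 0.05, among them 1 of the 4 GBPs other than *Gbp8* (*Gbp3*) and 5 of the 29 others. *Gbp8* was left out of this count, because the control arrays are those of the 24 h difference that chose it. Over all probe sets the share was under 0.05, fewer than this threshold passes where nothing differs. The share among members was larger but was not tested, because the members were chosen with earlier results of these data known. The methods' t-test called 1 of 34 members without adjustment, *Ifit1*, and 53 of all 45037 probe sets (0.118%), and none of either after it. The median log2 fold change at 6 h was 0.05 over the 4 GBPs and 0.01 over the 29 others.

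Between 24 h and 6 h, 2 of 33 members passed the test (6.06%), *Gbp6* higher and *Ifit2* lower, compared with 2.02% of all probe sets (1.14% higher and 0.879% lower). *Ddx58* (-0.12, adjusted p = 0.0898 by limma) and *Ifit3* (0.20, adjusted p = 0.0935 by limma) came next.

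Further genes of the interferon pathway were read from 5 lists: ligands and receptors, induction and JAK-STAT signalling, other inducible GTPases, other antigen presentation genes, and other interferon-stimulated genes. Of their 115 genes 99 were measured. At 24 h 4 were upregulated and 2 downregulated (6.06%), beside 2.73% of all probe sets (1.8% higher and 0.933% lower), with a median log2 fold change of 0.00, and at 6 h none passed the test. No gene passed in the first and second of these lists (0 of 11 and 0 of 19).

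*Ifnb1*, which encodes interferon-beta, read 3.68, 4.43 and 3.80 in the control, 3.57, 4.26 and 3.66 at 6 h, and 3.42, 4.14 and 3.66 at 24 h. Its signal was under the median of the array on every array, so a difference rests on a dim probe set. The reading of *Ifnb1* was lower than control in 3 of 3 experiments at both times. Its log2 fold change at 24 h was -0.23 ± 0.06 and did not pass the test (adjusted p = 0.115 by limma). The upregulated genes were *Lgals3bp* (0.27 ± 0.04, adjusted p = 0.0142), which encodes a secreted glycoprotein, the GTPase gene *Ifi47* (0.20 ± 0.04, adjusted p = 0.0403), the immunoproteasome subunit *Psmb10* (0.21 ± 0.04, adjusted p = 0.0447) and *Samd9l* (0.16 ± 0.02, adjusted p = 0.0144), all by limma. The downregulated genes were *H2-K1*, a major histocompatibility class I heavy chain (-0.16 ± 0.02, adjusted p = 0.0211), and *Ifitm1*, a membrane protein gene (-0.12 ± 0.02, adjusted p = 0.0295). Of the 3 catalytic immunoproteasome subunits, *Psmb8* and *Psmb10* were thus called and *Psmb9* was not.

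**Figure D4:**
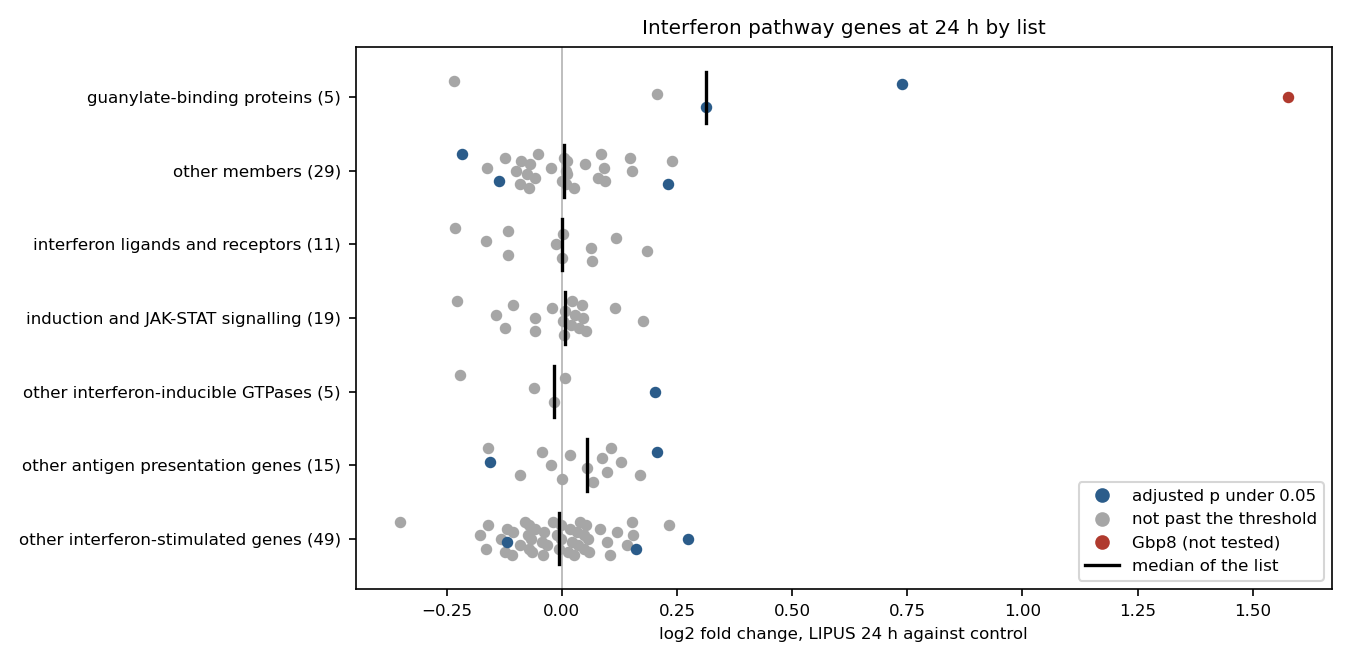
Log2 fold change at 24 h against control (x axis) of each measured gene in the GBPs, the other members and the 5 further interferon lists (y axis, number of genes in brackets), with blue points for genes past adjusted p of 0.05, grey points for the others, a red point for *Gbp8* and a black line for the median of the list. *Gbp8* and *Gbp6* lie apart from the other points, the median of the 5 GBPs is 0.31 with *Gbp8* counted, and the medians of the other lists lie between -0.02 and 0.05.

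Markers of the labelled cell type were in part bright and in part dim. Of 10 osteoblast markers 7 were measured, and none of these 7 passed the test at either time. The others, *Runx2*, *Bglap* and *Spp1*, were not measured here, so the result does not cover them. By PCR the study reports a significantly raised *Bglap* mRNA level at the later time after LIPUS and an unchanged *Spp1* level. The matrix genes *Col1a1*, *Col1a2* and *Sparc* had log2 signals above 12 on every array. *Ibsp* (bone sialoprotein) and *Phex* lay below the array median on all 9 arrays, and *Alpl* (alkaline phosphatase), at 4.47 to 5.59, lay near it. The summed signal of these 7 ranged from 33889 to 41117 in the control and from 34073 to 41438 at 24 h. This sum is on the linear scale and is set almost wholly by the matrix genes, so it cannot show a change in the dimmer markers. *Alpl* read 4.56, 5.29 and 5.20 in the control and 5.06, 5.59 and 5.25 at 24 h. *Ibsp* read 3.24, 3.53 and 2.99 in the control and 3.31, 3.85 and 4.10 at 24 h. Both were higher at 24 h in every experiment, without a call. The median log2 fold change of the 7 was -0.004. Of 14 macrophage and leukocyte markers 12 were measured and 6 lay below the array median on every array. Their summed signal ranged from 449 to 510 in the control, from 464 to 519 at 6 h and from 477 to 577 at 24 h. *Lyz2* (lysozyme) was upregulated at 24 h by 0.49 ± 0.06 (adjusted p = 0.00877 by limma), the only call among these 12. It read 6.49, 6.75 and 6.12 in the control and 6.92, 7.38 and 6.54 at 24 h. *Cd14* was lower at 24 h in every experiment, with 7.25, 7.32 and 6.94 in the control and 7.04, 7.10 and 6.82 at 24 h. The pan-leukocyte marker *Ptprc* read 2.74, 3.08 and 2.75 in the control and 2.77, 2.99 and 2.75 at 24 h. The median log2 fold change of the 12 at 24 h was -0.0007. None of 6 endothelial markers passed, and of 6 epithelial markers *Krt14* and *Cdh1* were downregulated by -0.98 ± 0.03 and -0.75 ± 0.11 (adjusted p = 9e-05 and 0.0198 by limma). The study already lists both of these probe sets as downregulated at 24 h from the same arrays, so these 2 calls are not independent of its result. The part of these markers in the values of the GBPs was not tested.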

How the data were processed

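Expression was measured on whole-genome mouse arrays with 45101 probe sets, on 3 arrays each of control, LIPUS 6 h and LIPUS 24 h cells, from 500 ng of total RNA with RNA integrity numbers of 9.5 to 10. The deposited values are log2 signals that the authors made with the RMA method, per the labels, and its version and settings are not given in the sources used here. These values were used as deposited. No detection calls were used here. Array medians ranged from 4.89 to 5.15 and differed by experiment more than by group. The number of distinct values was 40716 to 40936 on the arrays of experiment 1 but 13358 to 20047 on the others. The number of arrays limits the precision.

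Without the 64 array controls 45037 probe sets remained, and genes were named through the platform annotation with symbols brought up to date by gene identifier. Of these 34945 carried 1 symbol, 932 several and 9160 none. A linear model with group and experiment as terms was fitted to all arrays (limma 3.58.1, R 4.3.3) and moderated with a trend on intensity, which left 4 residual and 3.00 prior degrees of freedom. Adjustment followed Benjamini and Hochberg over all 45037 probe sets, with calls under 0.05. Values after ± are standard errors of log2 fold changes unless SD is given, and folds are arithmetic means of the 3 ratios.

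The replicate number of the titles was taken as the experiment, which the labels do not state. Arrays of the same number deviated together from their group means, with r of 0.701 to 0.9325 over 9 pairs, compared with -0.6743 to 0.009163 over 18 pairs of different numbers.

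The members and lists were chosen with earlier results of these data known. Values on every array were given for *Gbp8*, for members past the threshold in any comparison and for the member with the largest difference at 24 h in each role. Of the other lists, up to 6 genes past the threshold a list and *Ifnb1* were named. *Ifit1*, *Ifit3* and the shared probe sets were added after their values were seen. The fit was tested on simulated data with known changes at 24 h. Of 50 changes each of 1.2, 1.5, 2 and 3-fold it recovered 11, 34, 43 and 48, with 5 false calls. The simulated noise was normal and held none of the ties of the real arrays, so it does not show how ties affect the calls. Alternatives were a fit without the block, without the trend, on quantile-normalized values, on the brightest 40% of probe sets or on the arrays of the compared groups, the methods' t-test, the call rule of 1.5-fold in all 3 experiments, other choices of probe set, and leaving out experiments or arrays.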

Additional observations from a re-analysis of the deposited data

Results flagged for a closer look

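The response of *Gbp6* differed between the times. Its log2 signal at 24 h exceeded that at 6 h by 0.70 ± 0.06 (adjusted p = 0.00254 by limma), with ratios of 0.70, 0.81 and 0.59 in experiments 1, 2 and 3. The response of *Ifit2* also differed between the times, by -0.22 ± 0.04 (adjusted p = 0.0455 by limma), with ratios of -0.30, -0.23 and -0.15. *Ifit3* was higher than control at 24 h in all 3 experiments, with a log2 fold change of 0.079, and lower than control at 6 h in all 3, with -0.12. For *Ifit3* the fitted difference between the times was 0.20 ± 0.04 and did not pass the test (adjusted p = 0.0935 by limma).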

How the results depend on the processing

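The direction of the 6 member differences at 24 h that were followed across settings (*Gbp3*, *Gbp6*, *Psmb8*, *Ifit2*, *Ddx58* and *Bst2*) was the same under all 18 alternatives with an adjusted p, but their calls were not. Many of the 18 cannot change the fold change, so the direction there was fixed in advance. These are the fits without the block or the trend, on the brightest 40%, on the compared groups, by the methods' t-test or without a 6 h array. The rest reuse the same arrays. *Gbp6* passed the threshold under 13 of 18, *Psmb8* under 5, *Ifit2* under 4, *Gbp3* and *Ddx58* under 2 each and *Bst2* under 1, with adjusted p for *Gbp6* from 0.000769 to 1. The count of 5 members called at 24 h became 0 without the replicate block, when 1 probe set of the whole array was called instead of 1229. It became 1 without the variance trend, 0 on the arrays of the compared groups alone, 0 by the methods' t-test after adjustment, 2 by that test without adjustment (*Gbp6* and *Usp18*, beside 0.779% of all probe sets), and 1 by the rule of 1.5-fold in all 3 experiments. It was 5 of 33 after quantile normalization, which called 2.94% of all probe sets, and 6 of 24 on the brightest 40%, of which 10.6% were called. Leaving out experiment 1, 2 or 3 gave 0, 0 and 3 members, when 0, 49 and 1439 probe sets in all were called, and leaving out each single array in turn gave 1 to 3. Each such fit has fewer arrays. At 6 h the count of 0 became 1 by the methods' t-test without adjustment. Between 24 h and 6 h the count of 2 became 0 without the replicate block, 1 without the trend, 4 on the brightest 40% (with *Ifit3* and *Ddx58*, of 24 members tested, beside 7.68% of those probe sets), 0 on the arrays of the compared groups, 0 and 1 by the methods' t-test with and without adjustment, 1 by the rule of 1.5-fold, and 0 to 3 with an experiment or array left out. The median of the other members moved from 0.01 to -0.0089 at 24 h and to -0.0033 at 6 h under quantile normalization, and to 0.023 at 6 h on the brightest 40%. The median of the GBPs at 6 h moved from 0.05 to 0.10 with the mean over all probe sets of a gene. The 6 genes called in the 5 further lists at 24 h became 0 without the replicate block and 0 to 8 with an experiment left out. The cause of these moves was not tested.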
